A study of Mus musculus and Rattus norvegicus with 53 samples.

Results

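The 10 genes described here are core components of the Notch pathway: the receptors Notch1 and Notch2, the ligands Jag1, Jag2 and Dll1, the DNA-binding effector Rbpj, and the target genes Hes1, Hey1, Hey2 and Heyl. They were chosen by gene symbol among the 24016 gene rows of the mouse counts, and 10 of 10 were found. Notch signaling passes between touching cells. A ligand on one cell binds a receptor on the next, which is then cut by a metalloprotease and by gamma-secretase. The freed intracellular domain enters the nucleus, joins RBPJ and turns on HES and HEY genes, which encode transcriptional repressors. In the Schwann cell (SC) lineage, the pathway is known for a role in the formation of immature SCs and for opposing myelination.

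SCs were sorted by their tdTomato fluorescence from sciatic nerves of tdTomSC mice, which carry a Cre active in the Schwann cell lineage and a Cre-dependent tdTomato at Rosa26. All groups shared this genotype, and the mice were males and females of 6 to 8 weeks. The nerve was transected, and cells came from the uninjured nerve of the other side (iSCs), from the distal stump (dSCs) and from the bridge of new tissue between the stumps (bSCs). In the pooled experiment, 4 libraries of each region were made on day 6, each from nerves of 3 mice. In the single-nerve experiment, 5 iSC libraries, 3 dSC libraries each on days 1 and 2, and 3 dSC and 3 bSC libraries each on days 4, 6, 8 and 10, gave 35 in all. Values are read counts per gene in CPM, scaled by a library size that was corrected with the TMM method, so they differ from plain shares of the library.

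Reads counted on genes numbered 11435463 to 22617054 per pooled library and 9240883 to 22426128 per single-nerve library. The sorted cells carried Schwann cell transcripts in every group, but also transcripts that serve as markers of other cell types. The study reported by flow cytometry that a large majority of the tdTomato-positive cells of each region held S100β. From staining of sorted cells, shown for intact nerves, it reported negligible contamination by tdTomato-negative cells. It also reported more expression of extracellular matrix and mesenchymal genes in dSCs than in iSCs. Which cells gave the marker transcripts was not tested. In the pooled libraries, 6 of the 7 listed Schwann cell markers summed to 6530 to 19500 CPM in iSCs, 1440 to 5020 in dSCs and 1240 to 3720 in bSCs. The other marker is not reported here, so these sums are short of it. The largest of the sums given were those of 6 fibroblast markers, 9170 to 42400 CPM in iSCs, 27000 to 38900 in dSCs and 14200 to 26600 in bSCs. The 8 macrophage markers summed to 168 to 4230 CPM in iSCs, 7390 to 11900 in dSCs and 1760 to 5160 in bSCs, and 9 endothelial markers to 164 to 541, 157 to 483 and 87.7 to 883. The 8 mural cell markers summed to 332 to 1690 CPM in iSCs, 227 to 286 in dSCs and 328 to 1050 in bSCs. The Schwann marker S100b, 1 of these 6, had a median of 180.4 CPM in iSCs, 80.3 in dSCs and 8.30 in bSCs. In the edgeR test described below, 1 of the 6 Schwann markers was called higher and 4 lower in bSCs against iSCs. The counts were the same for dSCs against iSCs, and 0 were called between bSCs and dSCs. No marker of any list was at 0 in all libraries of a group. The part of other cell types in the results was not tested. Among the 5 single-nerve iSC libraries, replicates 0 and 1 had fewer detected genes, 10572 and 10042, than the others with 14045 to 15060. Replicate 0 also had the lowest Rbpj, Notch2 and Hes1 of the 5, with 1.81, 12.1 and 17.9 CPM. In sorted populations, fewer cells of a type and less RNA per cell cannot be told apart.

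The levels of the 10 genes differed widely. Each CPM was divided by the length of the gene's exons in kb to compare genes. Among pooled iSCs, Hes1 had the highest level, 33.1 ± 14.2 CPM per kb (SD, n = 4), followed by Notch2 at 24.3 ± 4.44, and the libraries of both overlapped. Jag1 followed at 12.1 ± 3.52, with all 4 libraries below those of Notch2, then Rbpj at 8.59 ± 2.99, Notch1 at 4.5 ± 1.77 and Hey1 at 4.44 ± 4.19, neighbours whose libraries overlapped. Hey2 at 1.74 ± 1.72, Heyl at 1.53 ± 1.75, Dll1 at 1.14 ± 0.839 and Jag2 at 0.650 ± 0.798 closed the order, with SDs about as large as the means. Over both experiments, Hes1 ranked first by mean level per kb in 12 of the 14 groups, Rbpj in dSCs of day 4 and Jag1 in bSCs of day 4.

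Notch1, Notch2, Jag1, Hes1 and Rbpj had reads in all 47 libraries, and these 5 also passed the stricter minimum of 100 counts in 85% of the single-nerve libraries. Hey2 was at 0 in 15 libraries, Jag2 in 11, Hey1 in 10, Dll1 in 7 and Heyl in 3. In most groups these 5 genes varied widely between libraries. All 10 passed the low-count filter of both experiments, which tested 13751 genes in the pooled and 15519 in the single nerves.

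The following compares the 3 regions of the pooled nerves, which asks how the state and the site of SCs after injury bear on the pathway. Differences were tested with edgeR's quasi-likelihood test with Benjamini-Hochberg adjustment over all tested genes, and a gene was called at an adjusted p under 0.05. Of the 10 genes, 2 were called between bSCs and iSCs, 1 higher and 1 lower, where 14.7% of all tested genes were called (7.24% higher and 7.46% lower). Between bSCs and dSCs, 1 was called as lower, against 5.43% of all genes (2.31% higher and 3.11% lower). Between dSCs and iSCs, edgeR called 0, against 5.32% of all genes (2.63% higher and 2.69% lower), with 1 at an unadjusted p under 0.05 and 0 by DESeq2. The median log2 fold change of the 10 genes was -0.21 in bSCs against iSCs, -0.48 in bSCs against dSCs and -0.22 in dSCs against iSCs, beside -0.16, -0.07 and -0.02 over all tested genes. The 3 comparisons share their libraries in pairs.

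**Figure D1:**
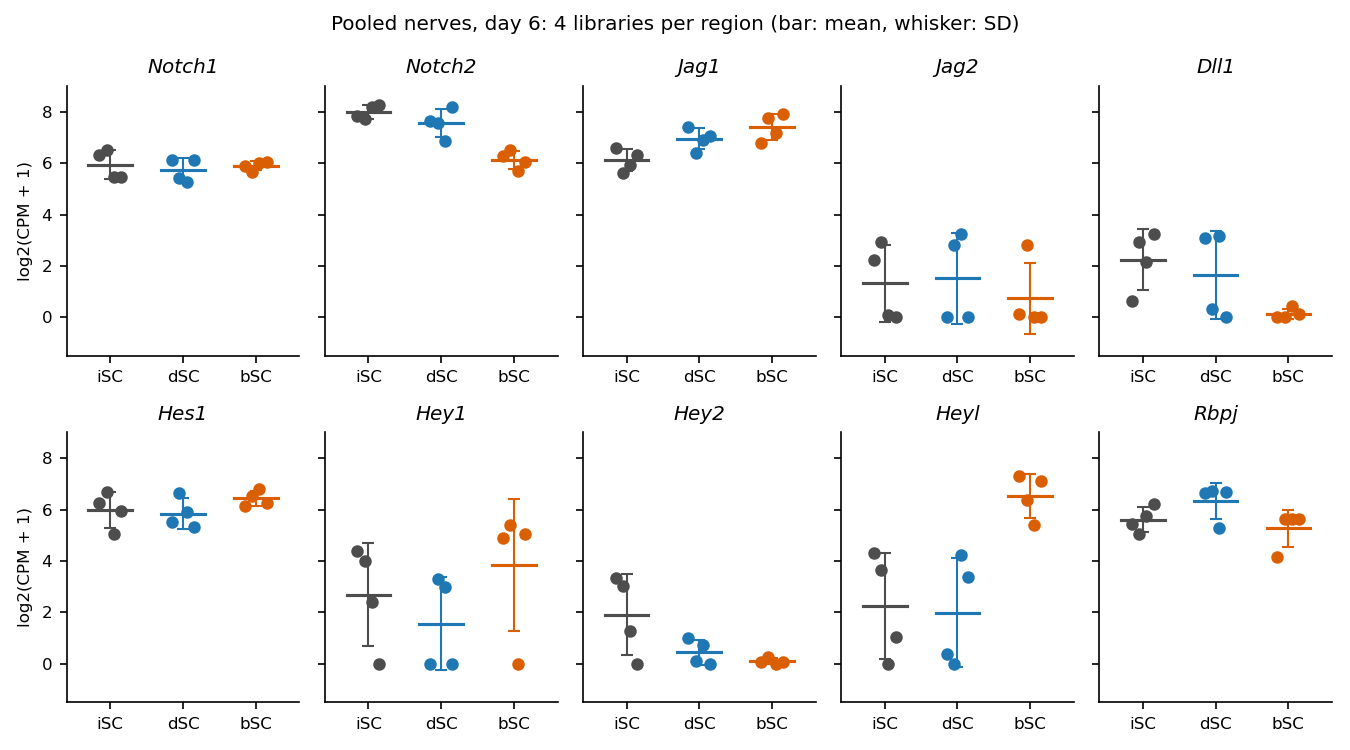
Each panel plots one gene as log2(CPM + 1) in the 4 libraries of pooled intact (iSC), distal (dSC) and bridge (bSC) SCs on day 6, with the mean as a bar and the SD as a whisker. The 4 bSC libraries lie below all others for Notch2 and above all others for Heyl.

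Notch2, a receptor, was lower in bSCs than in both other regions. Its levels were 225, 207, 286 and 304 CPM in iSCs, 198, 188, 116 and 289 CPM in dSCs, and 76.0, 90.4, 50.5 and 64.8 CPM in bSCs. Every bSC library was below every iSC and dSC library, while iSCs and dSCs overlapped. The difference of bSCs from iSCs was -1.86 ± 0.29 (log2 fold change ± SE), with an adjusted p of 0.00122. From dSCs it was -1.49 ± 0.29, with an adjusted p of 0.0128. The log2 fold change of dSCs against iSCs was -0.37 ± 0.29 (adjusted p = 0.644). Both calls held without any one of the libraries, with adjusted p values of at most 0.00513 and 0.042, and in a fit blocked by pool number. Neither held with the number of detected genes as a covariate, at adjusted p values of 0.0607 and 0.0595 with log2 fold changes of -1.85 and -1.48. That number was itself lower in bSCs, 11735 to 12606 against 13600 to 14987 in iSCs, so the covariate and the region are partly confounded. Over the 12 libraries Notch2 had a Pearson r of 0.49 with the summed Schwann cell markers and -0.12 with the macrophage markers. Over the 35 single-nerve libraries the r was -0.45 and 0.56. The part of these cell types was not tested.

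Notch1, the other receptor among the members, had 79.7, 91.3, 42.7 and 42.6 CPM in iSCs, 68.6, 41.5, 37.2 and 68.6 CPM in dSCs, and 58.0, 49.5, 63.5 and 64.6 CPM in bSCs. The 3 regions overlapped. Its log2 fold change of bSCs against dSCs was 0.13, with a 95% interval from -0.60 to 0.85.

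Jag1, a ligand, was higher in bSCs than in iSCs. It had 94.5, 48.2, 59.98 and 79.1 CPM in iSCs, 168, 84.1, 118 and 132 CPM in dSCs, and 110.3, 216, 142 and 238 CPM in bSCs. All bSC libraries were above all iSC libraries, and the dSC libraries overlapped both. The log2 fold change of bSCs against iSCs was 1.33 ± 0.32, with an adjusted p of 0.0137. The call was lost with the pool number as a block (1.37, adjusted p = 0.0746) and with the number of detected genes as a covariate (1.71, adjusted p = 0.102). In dSCs against iSCs it was 0.83 ± 0.32, which did not pass the adjustment (adjusted p = 0.176), and in bSCs against dSCs 0.49 ± 0.31 (adjusted p = 0.407). Over the 12 libraries Jag1 had a Pearson r of -0.81 with the summed Schwann cell markers and 0.47 with the macrophage markers. Over the 35 single-nerve libraries the r was -0.38 and 0.05. The part of these cell types was not tested.

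The promoters of the genes called here are shown because HES and HEY repressors are known to bind the class C site CACGCG and RBPJ the core TGGGAA. They are the 250 bases before the RefSeq start, from GRCm38.p6, read 5′ to 3′ on the gene's strand, with matches in capitals. The window of Notch2 is chr3:98013288-98013537 on the plus strand, and that of Jag1 chr2:137116521-137116770 on the minus strand.
Notch2: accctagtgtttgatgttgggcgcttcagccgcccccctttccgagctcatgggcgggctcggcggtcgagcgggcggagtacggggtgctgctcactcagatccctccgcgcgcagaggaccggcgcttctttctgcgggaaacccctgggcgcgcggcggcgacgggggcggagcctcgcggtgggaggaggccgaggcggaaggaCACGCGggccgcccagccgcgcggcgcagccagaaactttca
Jag1: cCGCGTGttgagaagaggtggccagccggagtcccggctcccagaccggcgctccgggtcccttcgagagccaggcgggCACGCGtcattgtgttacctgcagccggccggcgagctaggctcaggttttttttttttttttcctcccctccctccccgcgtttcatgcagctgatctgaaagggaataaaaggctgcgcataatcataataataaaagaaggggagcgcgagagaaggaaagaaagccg
Both strands were searched for these motifs and for the E-box CACGTG, and no matches overlapped. Notch2 held the class C site once, 42 bases before the start. Jag1 held it on the gene's strand 171 bases and on the opposite strand 249 bases before the start. Of 32851 mouse promoter windows of this length, 7.62% held the class C site, 21.6% the RBPJ core and 6.02% the E-box. Among the 7 members with an entry, Rbpj and Hey2 held the RBPJ core, Dll1 held the class C site in 1 of its 2 windows, and Notch1 and Jag2 held none of the 3 motifs. Promoters of Hes1, Hey1 and Heyl were not used here.

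The other ligands were near the detection limit in the pooled libraries. Dll1 had 0.546, 6.72, 3.48 and 8.55 CPM in iSCs, 7.50, 0.269, 7.98 and 0 CPM in dSCs, and 0, 0, 0.344 and 0.0933 CPM in bSCs. The bSC libraries held at most 4 reads of it, all below the iSC libraries, and overlapped the dSC libraries. With edgeR the difference from iSCs was not called (adjusted p = 0.0981), whereas DESeq2 called it against iSCs (adjusted p = 0.0107) and against dSCs (adjusted p = 0.0262). Dll1 shares exonic sequence with A930024N18Rik on the opposite strand, and Notch1 with 0610009E02Rik and Gm13568. The libraries did not keep the strand, so reads of such partners cannot be told apart. Jag2 was at 0 to 8.42 CPM across the 12 libraries, with overlap of all regions.

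Among the target genes, Heyl separated bSCs from both other regions in level. It had 18.7, 11.6, 0 and 1.05 CPM in iSCs, 0.306, 0, 17.7 and 9.40 CPM in dSCs, and 157, 81.9, 41.5 and 136 CPM in bSCs. Every bSC library was above every iSC and dSC library. Its log2 fold change in bSCs was 3.73 ± 1.55 against iSCs and 3.92 ± 1.56 against dSCs, and neither passed the test (adjusted p = 0.126 and 0.156). With the number of detected genes as a covariate both did (adjusted p = 0.0386 and 0.0349), at log2 fold changes of 11.63 and 10.58, far from those without it. The mural markers, whose bSC sums all lay above the dSC sums and overlapped the iSC sums, had a Pearson r of 0.47 with Heyl and 0.58 with Hey1 over the 12 libraries, and their part was not tested. Of all tested genes, 10.5% had every bSC library above every iSC library and 6.77% above every dSC library. Of the 10 members, 2 were above and 2 below without overlap against iSCs (14.5% of all genes were below), and 1 above and 1 below against dSCs (8.62% of all genes were below).

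Hes1, the most abundant target, had 75.2, 102, 32.6 and 60.3 CPM in iSCs, 44.3, 99.2, 59.2 and 39.4 CPM in dSCs, and 70.2, 90.4, 111 and 75.6 CPM in bSCs. The regions overlapped, with a log2 fold change of 0.36 between bSCs and iSCs and a 95% interval from -0.45 to 1.17. Hey1 had 19.9, 15.01, 4.24 and 0 CPM in iSCs, 0, 8.74, 6.94 and 0 CPM in dSCs, and 28.9, 41.2, 0 and 32.5 CPM in bSCs. With 1 bSC library and 2 dSC libraries at 0, the 95% interval of bSCs against dSCs ran from -1.54 to 6.95. Hey2 had 9.05, 7.22, 1.44 and 0 CPM in iSCs, at most 0.995 CPM in dSCs and at most 0.219 CPM in bSCs, which held no more than 3 reads each. Its difference between bSCs and iSCs was not called with edgeR (adjusted p = 0.0862) and was called with DESeq2 (adjusted p = 0.0136).

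Rbpj had 42.3, 32.3, 52.4 and 72.9 CPM in iSCs, 100.2, 104.5, 38.4 and 103 CPM in dSCs, and 17.0, 48.3, 48.9 and 49.0 CPM in bSCs. The dSC library at 38.4 CPM and the bSC library at 17.0 CPM lay far from the others of their regions, and the regions overlapped. In bSCs against dSCs, its log2 fold change was -1.08 ± 0.42 (adjusted p = 0.148).

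**Figure D2:**
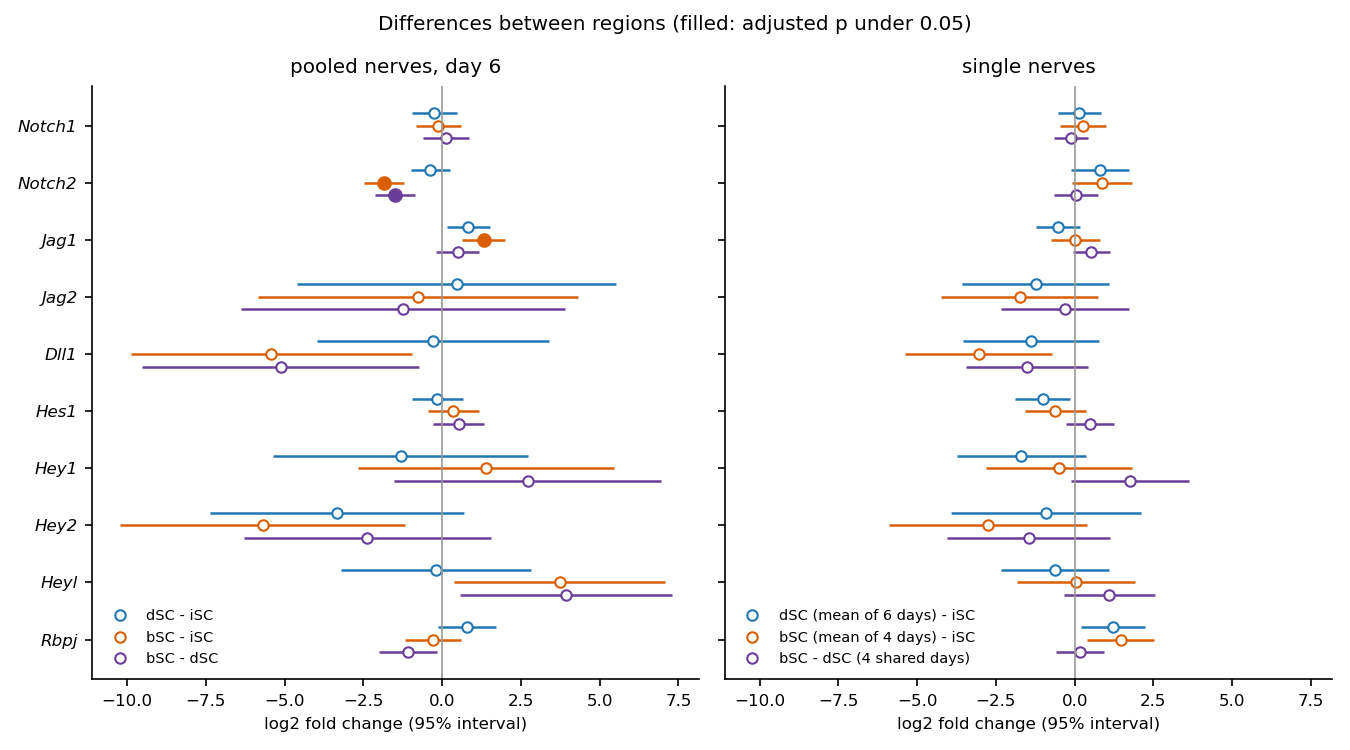
The log2 fold change of each gene (point) with its 95% interval (line) between regions, on the left in the pooled nerves and on the right in the single nerves, with filled points at an adjusted p under 0.05. Only Notch2 and Jag1 have filled points, in the pooled nerves, and the intervals of Jag2, Dll1, Hey1, Hey2 and Heyl are the widest.

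The single nerves show the same genes over time. None of the 10 was called by edgeR between dSCs (mean of 6 days) and iSCs, where 4.29% of all genes were called (1.38% higher and 2.91% lower), between bSCs (mean of 4 days) and iSCs (9.34% of all genes, 2.58% higher and 6.75% lower), or between bSCs and dSCs on the 4 shared days (0.103% of all genes). At an unadjusted p under 0.05 there were 2, 2 and 0 genes, and DESeq2 called 0, 2 and 0. The 2 were Dll1 (adjusted p = 0.0407) and Rbpj (adjusted p = 0.0305). Of 15519 genes, DESeq2 called 2089 for bSCs against iSCs. The median log2 fold change of the members was -0.77, -0.24 and 0.11, beside -0.11, -0.15 and -0.03 over all tested genes. Both comparisons with iSCs share the iSC libraries.

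**Figure D3:**
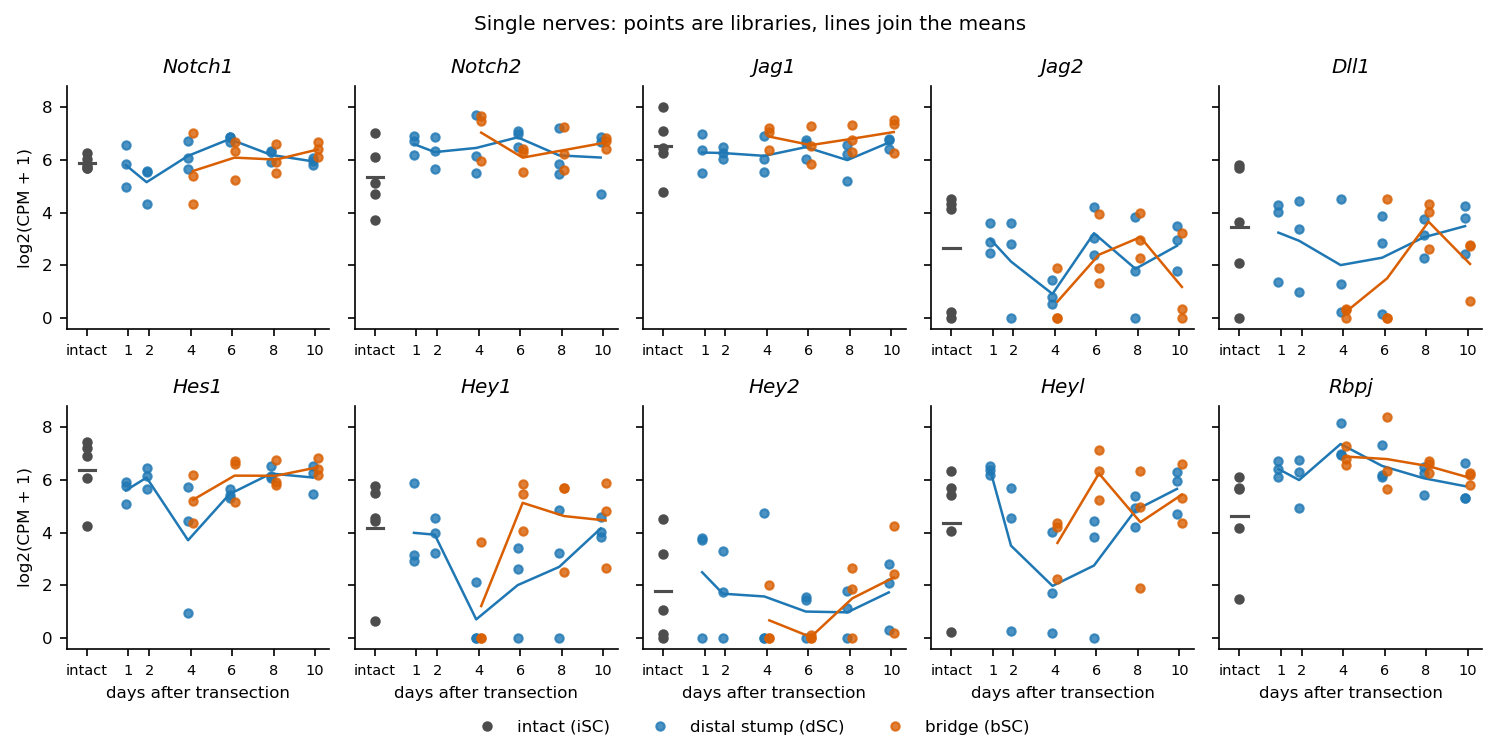
Each panel plots one gene as log2(CPM + 1) in the 35 single-nerve libraries against the day after transection, with intact nerves at the left. Points are libraries, and lines join the means of dSCs and of bSCs. Hes1, Hey1 and Heyl in dSCs have their lowest mean on day 4 and Rbpj its highest, and bSCs and dSCs of Notch2 overlap on days 4, 8 and 10 but not on day 6.

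In the single nerves, Notch2 of bSCs and dSCs overlapped on days 4, 8 and 10 but not on day 6. It ranged from 12.1 to 128 CPM (median 34.1) in iSCs, from 25.3 to 205 (median 96.0) in dSCs and from 45.9 to 201 (median 84.9) in bSCs. Between bSCs and dSCs over the 4 shared days the log2 fold change was 0.04, with a 95% interval from -0.66 to 0.74. Against iSCs it was 0.88 ± 0.47 (adjusted p = 0.262), or 0.62 without iSC replicate 0, opposite in sign to the pooled nerves. On day 6 alone, bSCs had 84.8, 77.2 and 45.9 CPM and dSCs 126, 135 and 89.4 CPM, without overlap, as 8.71% of all genes had every bSC library below every dSC library. The log2 fold change of that day was -0.75, with a 95% interval from -2.16 to 0.66 that holds the pooled value of -1.49. A joint fit of all 47 libraries, added after these values were seen, tested whether the day-6 difference depended on the experiment. For bSCs against iSCs the pooled value minus the single-nerve value was -2.28 ± 0.76 (adjusted p = 0.251), and for bSCs against dSCs -0.77 ± 0.81 (adjusted p = 1). It called none of the 10 genes in any of 3 region contrasts, where of 15913 genes 0.044% were called for bSCs against iSCs, 0.00628% for bSCs against dSCs and 0% for dSCs against iSCs. At an unadjusted p under 0.05 there were 3 genes for bSCs against iSCs, Notch2, Jag1 and Rbpj, and 0 in both other contrasts.

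Jag1 ranged from 26.8 to 259 CPM (median 87.3) in iSCs, 36.0 to 125 (median 82.9) in dSCs and 56.9 to 184 (median 120.5) in bSCs. Against iSCs, bSCs differed by a log2 fold change of 0.02, with a 95% interval from -0.74 to 0.79, and against dSCs by 0.53 ± 0.29 (adjusted p = 0.646). In 8 of the 10 animals that gave both a bSC and a dSC library, the bSC value was the higher one. With the animal as a replicate block, the log2 fold change was 0.51 (adjusted p = 0.35).

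Rbpj was low in iSCs, from 1.81 to 68.0 CPM (median 49.6), against 29.5 to 284 (median 80.5) in dSCs and 48.9 to 333 (median 86.0) in bSCs. Log2 fold changes were 1.46 ± 0.52 for bSCs against iSCs (adjusted p = 0.071) and 1.21 ± 0.49 for dSCs (adjusted p = 0.169). Without iSC replicate 0 these were 1.14 and 0.92. The dSCs of day 4 had 124, 122 and 284 CPM, all above the iSC libraries, with a log2 fold change of 2.24 ± 0.65 and an adjusted p of 0.065. On that day, 6.9% of all genes had every dSC library above every iSC library, and 1.73% were called. Macrophage markers moved with Rbpj: they summed to 7030 to 11400 CPM in dSCs of day 4, against 228 to 906 in iSCs. Over the 35 libraries, log2 Rbpj and log2 summed macrophage markers had a Pearson r of 0.65, a description over libraries that share regions and days. The part of macrophage transcripts in the level of Rbpj was not tested.

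Hes1 in dSCs had its lowest values on day 4, 51.9, 20.6 and 0.946 CPM, against 17.9 to 171 CPM (median 119.5) in iSCs. The groups overlapped because of iSC replicate 0. Endothelial markers were low on the same day, at 324 to 479 CPM in dSCs against 576 to 4390 in iSCs, and had a Pearson r of 0.42 with Hes1 over the 35 libraries. Their dSC medians were 381 CPM on day 4, 429 on day 6 and 422 on day 8, where Hes1 had means of 24.5, 43.2 and 75.2 CPM. On day 4 the log2 fold change of Hes1 was -2.09 ± 0.73 (adjusted p = 0.134), or -2.29 without that iSC library (adjusted p = 0.0999). Hey1 was at 3.35, 0 and 0 CPM in the same dSC libraries, and at 0.558 to 52.9 CPM (median 22.6) in iSCs, with an adjusted p of 0.244. DESeq2 called Hes1, Hey1 and Rbpj on day 4 (adjusted p = 0.0237, 0.0332 and 0.0122), where it called 1471 of 15519 genes. Over all days, edgeR called 0 of 60 tests of a gene on one dSC day against iSCs, with 4 at an unadjusted p under 0.05, where 0.18% of all genes were called on day 1, 0.445% on day 2, 1.73% on day 4, 0.554% on day 6, 0.303% on day 8 and 0.354% on day 10.

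Heyl and Hey1 were higher in bSCs than in dSCs of the same animal in most pairs, 9 of 10 for Heyl and 8 of 10 for Hey1 with 2 ties at 0. On day 6, Heyl had 79.6, 141 and 36.7 CPM in bSCs and 13.1, 0 and 20.5 CPM in dSCs, without overlap. Hey1 had 43.1, 15.7 and 56.7 CPM in bSCs and 9.60, 0 and 5.11 CPM in dSCs, likewise apart. On that day 7.6% of all genes had every bSC library above every dSC library. Over the 4 shared days the log2 fold change of bSCs against dSCs was 1.1 ± 0.71 for Heyl and 1.76 ± 0.92 for Hey1, and neither passed the test (adjusted p = 0.774 and 0.61). Without each library in turn it ran from 0.76 to 1.63 for Heyl and from -0.51 to 3.5 for Hey1, whose sign thus depended on the library left out. With the animal as a block the values were 1.68 and 2.36 (adjusted p = 0.477 and 0.269). Endothelial markers, which summed to 467 to 2470 CPM in bSCs and 416 to 1660 in dSCs of day 6, had a Pearson r of 0.57 with Hey1 and 0.43 with Heyl over the 35 libraries. Mural markers had an r of 0.48 and 0.41. Over the 12 pooled libraries, the r of endothelial markers was 0.11 with Hey1 and 0.18 with Heyl. The part of either cell type in these values, or of endothelial cells in the low Hes1 and Hey1 of day 4, was not tested.

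Dll1 ranged from 0 to 54.5 CPM in iSCs, 0.120 to 21.8 in dSCs and 0 to 22.1 in bSCs. In bSCs against iSCs the log2 fold change was -3.04 ± 1.14 (adjusted p = 0.088). Without replicate 3 of the bSCs of day 6, at 22.1 CPM, it was -5.49 with an adjusted p of 0.00629. Endothelial markers, at a median of 2320 CPM in iSCs, had a Pearson r of 0.67 with Dll1 and 0.72 with Jag2 over the 35 libraries. Over the 12 pooled libraries the r was -0.02 and 0.30. The part of endothelial cells was not tested. Jag2 and Hey2 reached 22.1 and 25.5 CPM at most, with libraries at 0 in all 3 regions. Notch1 had medians of 54.5 CPM in iSCs, 63.8 in dSCs and 74.4 in bSCs, and a log2 fold change of bSCs against dSCs of -0.12 with a 95% interval from -0.67 to 0.43. By day, dSCs lay below all iSC libraries on day 2, at 19.1 to 46.97 against 50.7 to 75.5 CPM (2.87% of all genes did so), and above them on day 6, at 100.6 to 114.6 CPM (5.73% of all genes). The bSCs ranged from 18.9 to 129 CPM and lay above all dSCs on day 10 (6.82% of all genes), and edgeR called none of these differences.

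No gene of the 10 was called by edgeR among the 6 dSC days (0.0644% of all genes), between late days 8 and 10 and early days 1 and 2 (0.206%), for a bSC to dSC difference that changed with the day (0%), or in 40 tests of bSCs against dSCs on one day (0.00644% of all genes on day 6, 0.0129% on day 10 and 0% on days 4 and 8). At an unadjusted p under 0.05 there were 0, 0, 0 and 1, and DESeq2 called 0 in each. For Heyl, the late minus early log2 fold change in dSCs was -0.16, with a 95% interval from -2.18 to 1.86.

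The genes whose log2 CPM was most like that of a member over the 35 single-nerve libraries are given as a description, by Pearson r. For the receptors they were Gpr126 (0.711) and Bckdha (0.703) for Notch1, and Midn (0.833) and Erf (0.81) for Notch2. For the ligands they were Lrrc8a (0.774) and Cald1 (0.74) for Jag1, Rasd1 (0.773) and Clu (0.769) for Jag2, and Rnf152 (0.8) and Bmp4 (0.768) for Dll1. For the targets they were Tmem186 (0.843) and Fam60a (0.809) for Hes1, Sox18 (0.818) and Pde4b (0.766) for Hey1, Susd5 (0.655) and Fam13a (0.633) for Hey2, and Pcdhgc3 (0.85) and Donson (0.828) for Heyl. For Rbpj they were Dab2 (0.897) and Stab1 (0.894). Between members, r ran from -0.238 for Notch2 and Hey1 to 0.624 for Hes1 and Hey1. These libraries share regions and days, and differ in depth.

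The other genes of the pathway came from a list of 61 names, of which 59 were among the counts and 54 were tested in the pooled nerves. Between dSCs and iSCs, 1 rose and 1 fell. Between bSCs and iSCs, 1 rose and 4 fell, and between bSCs and dSCs, 0 rose and 4 fell. DESeq2 called 5, 10 and 10 list genes in these comparisons in place of 2, 5 and 4, and the fit blocked by pool number 1, 3 and 1. The median log2 fold changes of the list were 0.08, -0.52 and -0.45. Beside the edgeR counts stand the 5.32%, 14.7% and 5.43% that it called among all genes. Of 13751 genes, DESeq2 called 1393, 3114 and 1939, and the blocked fit 287, 968 and 236. No difference of the list from all genes was tested.

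**Figure D4:**
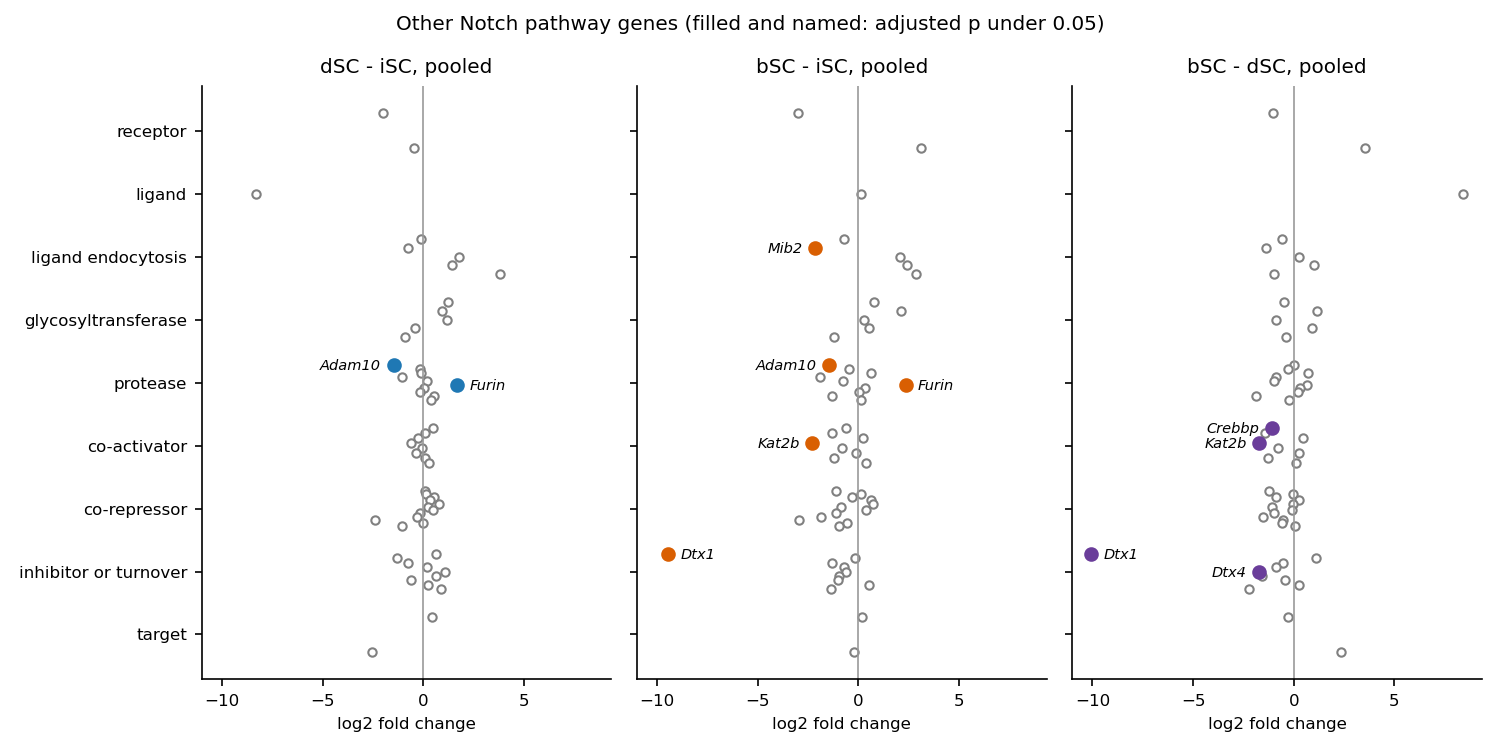
The log2 fold change (horizontal) of the other tested Notch pathway genes by role (vertical) in the pooled nerves, for dSCs against iSCs, bSCs against iSCs and bSCs against dSCs. Filled and named points passed an adjusted p of 0.05, and the values of Dtx1 and of the ligand Dll4 at the far ends come from groups in which all libraries were at 0.

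Furin, the protease that cuts Notch receptors before they reach the surface, had 22.9, 27.0, 23.9 and 21.0 CPM in iSCs, 51.9, 59.0, 90.3 and 105.1 CPM in dSCs, and 72.8, 147, 123 and 137 CPM in bSCs. It rose in dSCs by 1.69 ± 0.31 on the log2 scale (adjusted p = 0.00701, or 0.0621 with the pool number as a block) and in bSCs by 2.34 ± 0.31 (adjusted p = 0.000504). Over the 12 libraries it had a Pearson r of -0.81 with the Schwann cell markers and 0.54 with the macrophage markers, whereas Adam10 had 0.87 and -0.82. The part of these cell types was not tested. In the single nerves it rose in bSCs by 1.88 ± 0.59 (adjusted p = 0.0434), beside an iSC replicate 0 with 0.279 CPM. There the r of Furin with macrophage markers was 0.63. The call was lost in 13 of 17 fits without one library, at adjusted p values up to 0.0843, and held without replicate 0 or 2 of the bSCs of day 10, replicate 3 of those of day 6 and iSC replicate 5. Adam10, the metalloprotease that cuts ligand-bound Notch, had 437 to 940 CPM in iSCs, 246 to 359 in dSCs and 239 to 356 in bSCs. It fell by 1.47 ± 0.27 in dSCs (adjusted p = 0.00705) and by 1.44 ± 0.27 in bSCs (adjusted p = 0.00311) on the log2 scale, and both injured regions lay below all iSC libraries. In bSCs, 14.5% of all genes lay below all iSC libraries. With the number of detected genes as a covariate, the bSC call was lost (adjusted p = 0.155). Over the 35 single-nerve libraries, the r of Adam10 was only -0.11 with the Schwann cell markers and -0.17 with the macrophage markers.

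Kat2b, a histone acetyltransferase that acts as a co-activator, had 57.6 to 83.8 CPM in iSCs, 25.9 to 71.2 in dSCs and 7.39 to 23.3 in bSCs. It fell in bSCs by 2.3 ± 0.47 against iSCs (adjusted p = 0.00538) and by 1.71 ± 0.46 against dSCs (adjusted p = 0.0471). The call against dSCs was lost in 6 of 8 fits without one library and held without bSC replicate 1 or dSC replicate 3 (adjusted p up to 0.116). Crebbp, another acetyltransferase, fell in bSCs against dSCs by 1.09 ± 0.28 (adjusted p = 0.0398). Its call held in 1 of 8 such fits, that without dSC replicate 3, and was lost with the block (adjusted p = 0.0915). Mib2, a ubiquitin ligase for Notch ligands, had 26.4 to 57.7 CPM in iSCs and 2.34 to 19.4 in bSCs, and fell by 2.15 ± 0.63 (adjusted p = 0.0354). This call was lost in 6 of 8 fits without one library, held without bSC or iSC replicate 1, and was lost with the block (adjusted p = 0.0938).

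Dtx4, a Deltex ubiquitin ligase, had 66.8 to 184 CPM in dSCs and 32.1 to 48.9 in bSCs, and fell by 1.74 ± 0.36 (adjusted p = 0.0176). The call was lost without dSC replicate 1 (adjusted p = 0.0526) and with the block (adjusted p = 0.076). Dtx1, of the same family, had no read in the 4 bSC libraries, against 2.89, 0.814, 0.757 and 18.6 CPM in iSCs and 5.97, 22.8, 4.58 and 2.46 CPM in dSCs. It was called against both (adjusted p = 0.0105 and 0.0212), and against neither with the block (adjusted p = 0.0967 and 0.108).

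Of the 55 list genes tested in the single nerves, 0 rose and 1 fell in dSCs, and 1 rose and 1 fell in bSCs, both against iSCs. Among all tested genes, 4.29% were called in dSCs and 9.34% in bSCs. The gene that fell was Hes5, a target gene that had reads in 2 of 5 iSC libraries, at 11.2 and 1.64 CPM, none in bSCs and none in the pooled nerves (adjusted p = 0.0273 in dSCs and 0.0162 in bSCs). DESeq2 called it in neither (adjusted p = 0.479 and 0.301). Without iSC replicate 0 or 3, which held those reads, it fell under the count filter, and the dSC call was lost in 10 of the 21 remaining fits without one library. Of bSCs against dSCs on the 4 shared days, edgeR called 0 list genes, with 3 at an unadjusted p under 0.05, and DESeq2 called 1, Adam10. Among all genes, edgeR called 0.103% and DESeq2 579 of 15519. Notch4, a receptor named here after its values were seen, had 1.33 to 2.70 CPM in iSCs, 0 to 3.55 in dSCs and 14.2 to 20.8 in bSCs of the pooled nerves. Its bSC libraries lay above all others, and the differences were not called (adjusted p = 0.176 against iSCs and 0.174 against dSCs). Of all genes tested in the pooled nerves, 10.5% had every bSC library above every iSC library and 6.77% above every dSC library.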

How the data were processed

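Reads of Smart-seq2 libraries were aligned by the authors with TopHat 2.0.11 to mm9 and counted per gene with HTSeq 0.6.1, and the raw counts were deposited without normalization. Rows for spike-ins and for reads outside genes were set aside, which left 39.1% to 47.1% of uniquely aligned reads. Counts of lanes were added up per library, since lanes differed by a chi-square per degree of freedom of at most 1.316 and replicates by at least 48.197. Groups came from the sample labels. Rat libraries were not used here. The promoter that drives Cre is not reported here. The 10 genes, the gene lists and the tests were chosen with earlier results of these data known.

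Each experiment was fitted as a whole with edgeR 4.0.16 (R 4.3.3): filterByExpr, TMM normalization, the quasi-likelihood test and Benjamini-Hochberg adjustment over all tested genes, with region, or region and day, as groups. Intervals cover the spread between these libraries. PCR reads without molecular identifiers are not independent molecules. Named genes are the 10 members in every comparison, from the pathway list at most the 3 largest rises and 3 largest falls called per comparison, and for each member the 2 genes with the highest Pearson r over the 35 single-nerve libraries. Adam10 was added to the bSC falls and Notch4 was named after its values were seen. Exon lengths are from GENCODE on NCBIM37 (mm9).

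Results were recomputed with DESeq2 1.42.0, with edgeR on DESeq2 size factors, without the low-count filter, with a covariate for the number of detected genes or for libraries given as 1 file or 2 lanes, on only the groups compared, with the study's minimum of 100 counts in 85% of single-nerve libraries, with a replicate block, without each library, and in a joint fit of both experiments, chosen after seeing the data. The labels give libraries of one pool number or animal the same identifier, and these numbers were taken to pair the samples. Deviations from group means of same-numbered pooled libraries correlated at a mean r of -0.0669 (bSCs and iSCs), -0.0277 (dSCs and iSCs) and 0.0352 (bSCs and dSCs). For libraries of different numbers the mean r was 0.0159, 0.00782 and -0.0115. These values do not show a pairing of the pooled iSC libraries with the other regions, so calls lost with the pool block are to be read with care. In the single nerves the mean r was 0.157 over 10 animals with bSCs and dSCs, against -0.0834 for different animals of one day. One bSC library of day 10 with labels that disagree was left out of the pairs. The methods of the study drop 1 single-nerve iSC library without naming it, and all 5 were kept here. On simulated data with 200 genes changed 4-fold, 34 were recovered for bSCs against dSCs in the pooled nerves (13309 genes) and 74 in the single nerves on the 4 shared days (15206 genes), so a 4-fold change could often be missed.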

Additional observations from a re-analysis of the deposited data

Results flagged for a closer look

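In groups of 4 or 5 libraries, a library was marked where its gap to the nearest other library, divided by the range of the group, passed Dixon's 95% critical value. Of 40 groups of the 10 genes searched, 3 held such a library, where chance marks about 1 in 20. Jag2, a ligand, had 6.07 CPM in replicate 2 of the pooled bSCs, against 0 to 0.0897 CPM in the other 3. Rbpj, the DNA-binding effector, had 38.4 CPM in replicate 3 of the pooled dSCs, against 100.2 to 104.5 CPM in the others. Rbpj had 17.0 CPM in replicate 1 of the pooled bSCs, against 48.3 to 49.0 CPM in the others. None of the calls of Notch2 or Jag1 rests on these values.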

How the results depend on the processing

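The number of the 10 genes called was 2 for bSCs against iSCs in the pooled nerves, and became 4 with DESeq2. With the number of detected genes as a covariate it was 1, Heyl (adjusted p = 0.0386), while Notch2 and Jag1 were both lost. In the replicate block by pool number it was 1, Notch2. For bSCs against dSCs the number was 1 and became 2 with DESeq2. With the covariate it stayed at 1, but Heyl (adjusted p = 0.0349) took the place of Notch2 (adjusted p = 0.0595). In the single nerves, 0 for bSCs against iSCs became 2 with DESeq2 and 1 with the covariate, and 0 of 60 tests of one dSC day became 3 with DESeq2, 1 with the covariate and 1 with the study's count minimum. Without each library in turn, the counts stayed at 2, 1 and 0 in the pooled comparisons, and went from 0 to 1 in the single nerves for bSCs against iSCs (Dll1, without replicate 3 of the bSCs of day 6) and for one dSC day (Rbpj on day 4, without iSC replicate 5, adjusted p = 0.0467). The other comparisons of the single nerves stayed at 0. No called value changed sign. The block changed no other call of the 10 genes. The call of Jag1 ranged in adjusted p from 0.00708 to 0.0474 without each library. Over all genes, the block left 287, 968 and 236 calls in the pooled comparisons in place of 732 (dSCs and iSCs), 2022 (bSCs and iSCs) and 746 (bSCs and dSCs), and the animal block gave 236 in place of 16 for bSCs against dSCs on the 4 shared days. Over the alternatives that kept all libraries these counts ranged from 287 to 1393, 350 to 3114, 236 to 1939 and 8 to 579, and from 446 to 1129 for dSCs and 541 to 2089 for bSCs against iSCs in the single nerves, in place of 665 and 1449. DESeq2 gave the highest count in each of these ranges. Without each library in turn, the 6 counts ranged, in the same order, from 310 to 1007, 1318 to 2082, 325 to 800, 3 to 97, 304 to 768 and 1019 to 1366. The spread between libraries limits Jag2, Dll1, Hey1, Hey2 and Heyl, whose 95% intervals in the pooled nerves span several log2 units.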
